A study of Mus musculus with 16 samples.

Results

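Branched-chain amino acid breakdown was followed through 10 genes: Bcat1, Bcat2, Bckdha, Bckdhb, Dbt, Bckdk, Ppm1k, Hibadh, Ivd and Mccc1. They were taken as listed enzymes and regulators of the pathway, and their measured values were not part of that rule. Earlier results of these data were known when they were chosen, however. They are 10 of the 19108 gene symbols in the count files. All 10 were present and all 10 passed the filter on low counts. The study sequenced polyadenylated RNA of snap-frozen quadriceps muscle from C57BL/6 mice aged 6 months. It compared wild-type mice (WT) with mice of the genotype ANT1(Tg)/+ (Tg), which carry a transgene for Ant1, the ADP/ATP carrier of the inner mitochondrial membrane of heart and muscle, now named Slc25a4. Each genotype had 4 females and 4 males, 1 library per animal and 16 in all. The mice ate regular chow, lived at ambient temperature and had littermates as controls where that was possible. The labels do not name the promoter that drives the transgene, nor the number of founder lines.

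Leucine, isoleucine and valine are broken down largely outside the liver, and skeletal muscle carries out much of the first step, in which an aminotransferase moves the amino group to 2-oxoglutarate. The resulting keto acids are committed to oxidation by the branched-chain keto acid dehydrogenase (BCKDH) complex of the mitochondrial matrix, which a kinase switches off and a phosphatase switches on. The products then follow separate routes to acetyl-CoA, acetoacetate or succinyl-CoA, except that the 3-hydroxyisobutyrate of the valine route can leave the cell.

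The libraries held 17435895 to 30680324 counts each. Levels are given as counts per 1000000 (CPM) after TMM scaling, which corrects for differences in library composition. The transgene's own gene, Slc25a4, was at 2792 to 3919 CPM in the 8 WT libraries and at 8507 to 11044 CPM in the 8 Tg libraries; the genotype labels and the levels matched. Muscle genes dominated every library, with 143153 to 243935 CPM summed over 8 listed markers of fast muscle and none of the 8 at 0 anywhere. Among the 8 are Acta1 and Ckm, which belong to skeletal muscle in general. Averaged over the sexes, 3 of these 8 were called by edgeR, by DESeq2 and by limma-voom (with edgeR 1 higher and 2 lower in Tg). Of the 8, 2 had a positive and 6 a negative log2 fold change. Myh1 averaged 3238 CPM in WT and 6724 in Tg, Myh4 92045 and 64100, and Tnnt3 22624 and 17968. The alternative fits held no covariate of these 8 genes. Slow fibre markers were uneven: edgeR called 6 of 8 higher in Tg (DESeq2 5, limma-voom 2), 3 of the 8 were at 0 in some library, and the summed slow fibre level was 1120 CPM in Tg female 2 against 46.6 to 192 CPM in the other libraries. In the averaged comparison none of 8 adipocyte, 5 endothelial, 5 macrophage, 5 fibroblast or 4 Schwann cell markers was called by edgeR, DESeq2 or limma-voom. An unadjusted p under 0.05 was found for 1 endothelial marker with each of these tools. DESeq2 also gave it for 1 macrophage and 1 fibroblast marker, and limma-voom for 1 Schwann cell marker. All 8 adipocyte markers had a negative log2 fold change in the averaged comparison, with a median of -0.81. Adipocyte, slow fibre, macrophage and fibroblast markers within females are given beside the female comparison. Adipocyte RNA was also uneven between libraries. The summed level of 7 adipocyte markers was 2464 CPM in WT female 1, 3164 CPM in WT female 2 and 3216 CPM in WT male 1, against 172 to 1321 CPM in the other 13 libraries.

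Bckdhb encodes the beta chain of the first enzyme (E1) of the complex and was the one gene of the 10 called in the averaged comparison, so the 250 bases before its start in RefSeq are shown. Letters come from RefSeq on GRCm38.p6, the assembly that mm10 names, and the capitals mark CCAAT, a common promoter element bound by the factor NF-Y, or its reverse complement ATTGG. The stretch is chr9:83924887-83925136 on the plus strand, and the RefSeq start lies 8 bases before that of GENCODE.
Bckdhb: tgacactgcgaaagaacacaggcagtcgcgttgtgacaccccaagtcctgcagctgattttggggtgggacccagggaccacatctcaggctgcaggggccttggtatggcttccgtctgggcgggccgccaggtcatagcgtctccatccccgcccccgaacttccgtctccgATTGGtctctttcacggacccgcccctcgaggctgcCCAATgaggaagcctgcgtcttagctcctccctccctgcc

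The Bckdhb stretch holds 2 CCAAT matches, 1 on the opposite strand 76 bases before the start and 1 on the gene's own strand 40 bases before it, and 63.2% of its bases are G or C. The table of RefSeq promoters has 12 entries for 9 of the 10 genes (Dbt has none), some of them for alternative starts inside the gene. CCAAT is on either strand in 7 of the 12 entries (58.3%; 1 each of Bcat1, Bckdhb, Bckdk, Hibadh, Ivd, Mccc1 and Ppm1k), against 33.8% of 32851 promoters of the same length. The single Bckdha entry starts 220 bases inside the gene as GENCODE gives it, so its letters are not set beside those of Bckdhb. The letters TGATGNAA, the core of the amino acid response element bound by the stress factor Atf4, were searched on both strands as well. They are in 0 of the 12 entries and in 3.45% of all promoters. These matches describe letters in these windows and show nothing about binding.

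Levels differed far more between the genes than between the genotypes. Per kb of principal transcript, Bckdha (79.6 CPM per kb on average over 16 libraries) and Hibadh (78.9) were highest, followed by Bckdk (49.0), Ivd (40.8) and Bcat2 (38.6), then Bckdhb (20.4) and Mccc1 (20.2), then Dbt (11.7), Ppm1k (2.89) and Bcat1 (0.130). The ranges over libraries overlapped between Bckdha and Hibadh, between Bckdk and Ivd, between Ivd and Bcat2, and between Bckdhb and Mccc1, so the order within those pairs is not set. All other neighbours in the order were separated in all 16 libraries, but some genes further apart were not. The lowest Bckdha value (46.3) lay below the highest of Bckdk (55.5), Ivd (50.5) and Bcat2 (49.2). Bckdk (from 37.6) also overlapped Bcat2, and Bckdhb (from 13.4) overlapped Dbt (up to 15.8). The order among these is not set either. The order depends on the transcript length used. Over all annotated exons, the level of Hibadh falls to 14.1 and that of Mccc1 to 4.54 CPM per kb, while Bckdha stays at 79.6.

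**Figure D1:**
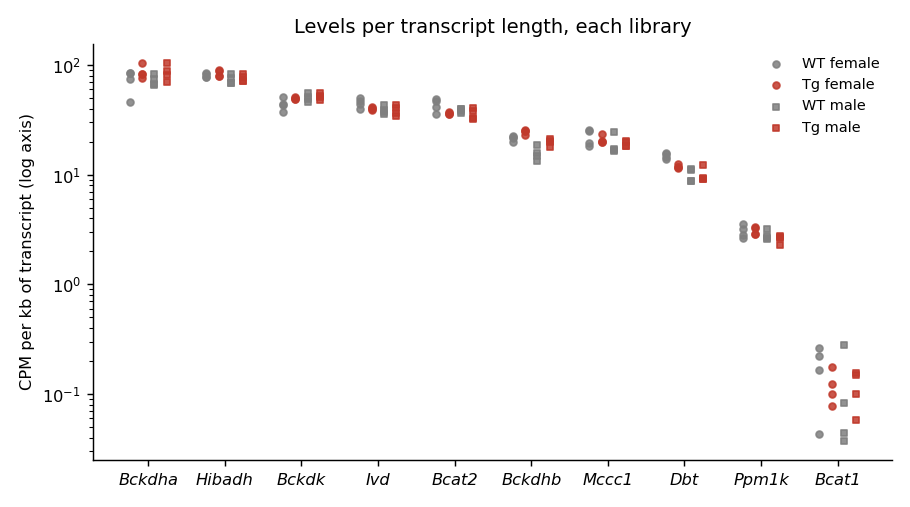
Level of each gene in each of the 16 libraries, in CPM per kb of principal transcript on a log axis, with WT in grey, Tg in red, females as circles and males as squares. Means run from 79.6 CPM per kb for Bckdha down to 0.130 for Bcat1, and the genotypes lie close together within each gene.

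Averaged over the sexes, Tg against WT changed 1 of the 10 genes at an adjusted p under 0.05 (Benjamini-Hochberg over 13666 genes): Bckdhb, which was higher. Of all tested genes 30.4% were called, 17.2% as higher and 13.3% as lower, so the pathway's share was not above that background. The median log2 fold change of the 10 was -0.04 and that of all tested genes -0.01. In size, without sign, the medians were 0.136 for the 10 and 0.192 for all tested genes. An unadjusted p under 0.05 was found for 3 of the 10, namely Bckdhb, Bcat2 and Dbt, and for 5507 of the 13666 tested genes. No gene of the 10 had its 8 Tg libraries all on one side of its 8 WT libraries, which 7.92% of tested genes did.

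**Figure D2:**
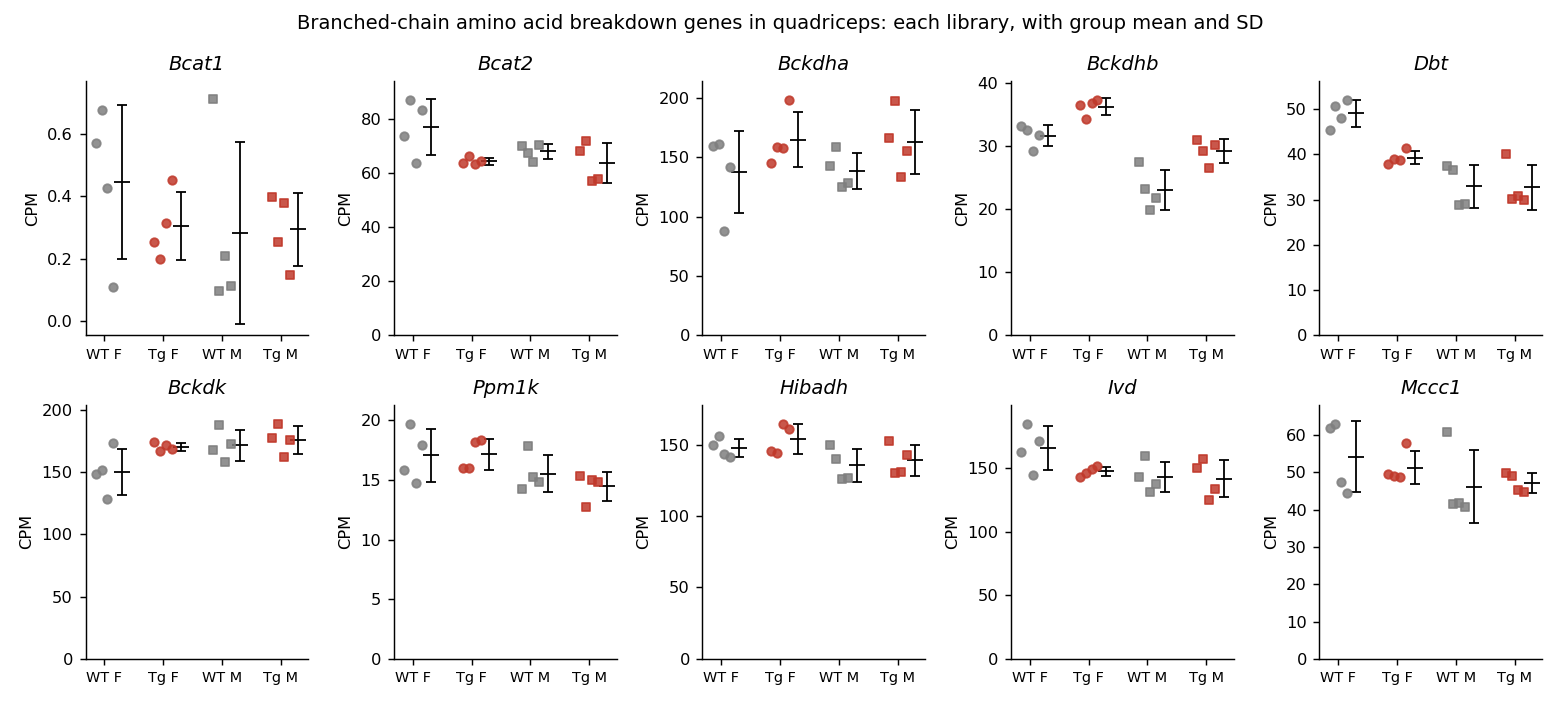
CPM of each of the 10 genes in the 16 libraries, grouped as WT females, Tg females, WT males and Tg males, with the group mean and SD (n = 4) beside the points; the Bcat1 axis starts just below 0. Bckdhb is at 34.2 to 37.3 CPM in Tg females and 29.2 to 33.1 in WT females, and Dbt is at 38.0 to 41.4 and 45.5 to 52.1.

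The aminotransferases come first. Bcat2 (chromosome 7, 45570153 to 45589711, plus strand) encodes the mitochondrial enzyme, the form typical of muscle. It was at 73.7, 87.2, 63.9 and 83.4 CPM in WT females and at 63.6, 66.2, 63.3 and 64.5 in Tg females. In males it was at 69.97, 67.5, 64.3 and 70.6 CPM in WT and 68.2, 71.9, 57.2 and 57.8 in Tg. WT females 1, 2 and 4 lay above every Tg female while WT female 3 lay among them, and the males overlapped. The averaged log2 fold change was -0.18 (SE 0.07, 95% interval -0.32 to -0.04), with an edgeR adjusted p of 0.0549, just outside the threshold. It was inside it with DESeq2 (0.0224), with other scaling factors (RLE, 0.0373) and without WT female 3 (0.0105), and over all alternatives the adjusted p ran from 0.0105 to 0.132.

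Bcat1 (chromosome 6, 144993835 to 145076184, minus strand), which encodes the cytosolic form best known from brain, was close to the limit of detection. Among WT its counts were 17, 13, 8 and 2 for females and 16, 2, 5 and 3 for males. Among Tg they were 7, 4, 9 and 11 for females and 11, 6, 10 and 3 for males. That is 66 counts over the 8 WT libraries and 61 over the 8 Tg libraries, where a count of 0 in a library would still allow 0.101 to 0.165 CPM. The log2 fold change of -0.22 (SE 0.41, interval -1.10 to 0.65, adjusted p = 0.718) leaves the direction unset. Its 3 highest libraries, at 0.570, 0.677 and 0.713 CPM, were WT female 1, WT female 2 and WT male 1, the same 3 that were rich in adipocyte markers. The other 5 WT libraries were at 0.0953 to 0.427 CPM and Tg at 0.147 to 0.453. With those 3 left out the log2 fold change was 0.61 (adjusted p = 0.272), and without WT male 1 alone it was 0.26, both opposite in sign to the value over all libraries. All 3 are WT and hold the highest Bcat1 levels, so leaving them out raises the value by construction. The rule that picked them, over 3 times the median of 7 adipocyte markers, was set after seeing the data. The part of adipocyte RNA in these levels was not tested, and in bulk tissue fewer cells of a type and less RNA per cell cannot be told apart.

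The BCKDH complex consists of the E1 chains from Bckdha and Bckdhb, which decarboxylate the keto acid, the E2 core from Dbt, which passes the acyl group to coenzyme A, and the E3 enzyme from Dld, which the pyruvate and 2-oxoglutarate dehydrogenases also use. Their values did not share a direction. Bckdhb was called higher, while Bckdha had a positive and Dbt a negative log2 fold change that did not pass the test.

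Bckdhb (chromosome 9, 83925145 to 84124240, plus strand) was at 33.1, 32.4, 29.2 and 31.7 CPM in WT females and at 36.5, 34.2, 36.7 and 37.3 in Tg females. In males it was at 27.4, 23.1, 19.7 and 21.7 CPM in WT and at 30.9, 29.1, 26.5 and 30.1 in Tg. All 4 Tg females lay above all 4 WT females, and 3 of 4 Tg males lay above all WT males, with WT male 1 reaching above Tg male 3. Group means were 31.6 ± 1.71 (WT females), 36.2 ± 1.36 (Tg females), 23.0 ± 3.23 (WT males) and 29.2 ± 1.92 CPM (Tg males; SD, n = 4 each). The averaged log2 fold change was 0.27 (SE 0.06, interval 0.14 to 0.40), which is 1.21-fold (interval 1.10 to 1.32), with an edgeR adjusted p of 0.00358. The gene was called in all 26 alternative fits of this comparison, with adjusted p from 0.000519 to 0.0229. With the slow fibre marker level as a covariate the log2 fold change was 0.26, and with the 3 adipocyte-rich WT libraries left out it was 0.32. Those 3 hold the highest Bckdhb levels among the WT libraries of their sex, so leaving them out raises the value by construction. In WT the slow fibre sum was led by the marker Atp2a2, at a mean of 49.8 CPM against 11.5 for Casq2 and 1.60 for Myh7. Atp2a2 had medians of 49.8 CPM in WT and 49.2 in Tg, so this covariate is a limited measure of the other slow fibre markers.

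Bckdha (chromosome 7, 25629946 to 25658981, minus strand) varied more. WT females were at 159, 162, 87.8 and 142 CPM and Tg females at 145, 159, 158 and 199. WT males were at 143, 158, 125 and 128 CPM and Tg males at 166, 198, 134 and 155. WT female 3 was the lowest of the 16 and the genotypes overlapped in both sexes. The log2 fold change was 0.25 (SE 0.12, interval -0.01 to 0.50, adjusted p = 0.136), which covers both no change and the size seen for Bckdhb. It was 0.17 without WT female 3. Exons of B3gnt8 on the opposite strand share 1171 bases with this gene; B3gnt8 itself was at 0.386 to 1.24 CPM. Whether reads were counted by strand is not given in the sources used here.

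Dbt (chromosome 3, 116513070 to 116549981, plus strand) was lower in Tg than in WT females. Its level was 45.5, 50.8, 48.0 and 52.1 CPM in WT females and 38.0, 38.9, 38.7 and 41.4 in Tg females, without overlap. In males the level was 37.5, 36.4, 28.8 and 29.0 CPM in WT and 40.0, 30.0, 30.7 and 30.0 in Tg, and the groups overlapped, though Tg male 1 lay above every WT male and WT males 3 and 4 lay below every Tg male. The averaged log2 fold change was -0.17 (SE 0.07, interval -0.32 to -0.01) with an adjusted p of 0.110. For Dld, the E3 gene, it was -0.18 (SE 0.07, adjusted p = 0.0763), so neither E2 nor E3 was called.

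Because Bckdha and Dbt are read in the same library, their ratio does not depend on library scaling. The log2 ratio of Bckdha to Dbt was 1.76 ± 0.44 in WT and 2.19 ± 0.26 in Tg (SD, n = 8 each), a geometric mean of 3.40 to 1 against 4.55 to 1 in CPM. Single libraries ran from 0.87 to 2.14 in WT and from 1.93 to 2.72 in Tg. The difference of 0.42 had p = 0.00408 in an exact two-sided permutation test that exchanged genotypes within each sex (4900 regroupings, smallest possible p = 0.000408), and 0.0122 after adjustment over the 3 ratios examined. It was 0.61 in females and 0.24 in males. Leaving out single libraries gave 0.33 to 0.48, all with an adjusted p under the threshold. With the 3 adipocyte-rich WT libraries left out the difference was 0.54 and the adjusted p of the exact test 0.0571.

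The switch of the complex is a pair of genes. Bckdk (chromosome 7, 127904082 to 127910221, plus strand), the kinase that phosphorylates the E1 alpha chain and turns the complex off, was at 128 to 188 CPM in WT (median 163) and 162 to 189 in Tg (median 172). Ppm1k (chromosome 6, 57506502 to 57535468, minus strand), the phosphatase that reverses this, was at 14.3 to 19.7 CPM in WT (median 15.5) and 12.7 to 18.3 in Tg (median 15.7). The genotypes overlapped for both. Their log2 fold changes were 0.11 (SE 0.06, adjusted p = 0.192) and -0.05 (SE 0.07, adjusted p = 0.661). The log2 ratio of Bckdk to Ppm1k was 3.30 ± 0.21 in WT and 3.45 ± 0.22 in Tg (SD, n = 8 each). That difference of 0.16 had p = 0.0441 in the exact permutation test and 0.0661 after adjustment over the 3 ratios, so it did not pass. The third ratio, Bcat1 to Bcat2, differed by 0.15 with p = 0.679 in the same exact test (0.679 adjusted).

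In the leucine branch, Ivd (chromosome 2, 118861954 to 118882909, plus strand) encodes isovaleryl-CoA dehydrogenase and Mccc1 (chromosome 3, 35959312 to 36000678, minus strand) the biotin-bearing chain of methylcrotonyl-CoA carboxylase. Ivd was at 131 to 185 CPM in WT (median 152) and 125 to 157 in Tg (median 148), and its log2 fold change of -0.09 (SE 0.06) was not called (adjusted p = 0.292). Among the members compared in pairs, Ivd and Bcat2 had the most similar course over the libraries. Their log2 CPM, each centred on its mean, differed by 0.0633 on average over 16 libraries, the smallest value of the 36 pairs compared (the sparse Bcat1 was not among them).

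Mccc1 was at 61.9, 63.1, 47.5 and 44.5 CPM in WT females and 60.7, 41.5, 41.7 and 40.8 in WT males. The Tg levels were 49.5, 48.9, 48.6 and 57.9 CPM for females and 49.9, 48.9, 45.2 and 44.6 for males. The 3 WT libraries above 60 CPM were again WT female 1, WT female 2 and WT male 1, those rich in adipocyte markers. Averaged over the sexes the log2 fold change was -0.03 (SE 0.09, interval -0.23 to 0.17, adjusted p = 0.860). Without the 3 libraries it was 0.15 with an adjusted p of 0.0586. These are the 3 highest libraries for Mccc1 as well and all are WT, so leaving them out raises the value by construction. Hibadh, too, was higher in these 3 (149.6 to 155.7 CPM) than in the other 5 WT libraries (126 to 143), while the remaining 7 genes overlapped between them. The share of all tested genes that separate these 3 libraries from the other 5 was not counted, so nothing is read from the number of genes. The part of adipocyte RNA in these levels was not tested.

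**Figure D3:**
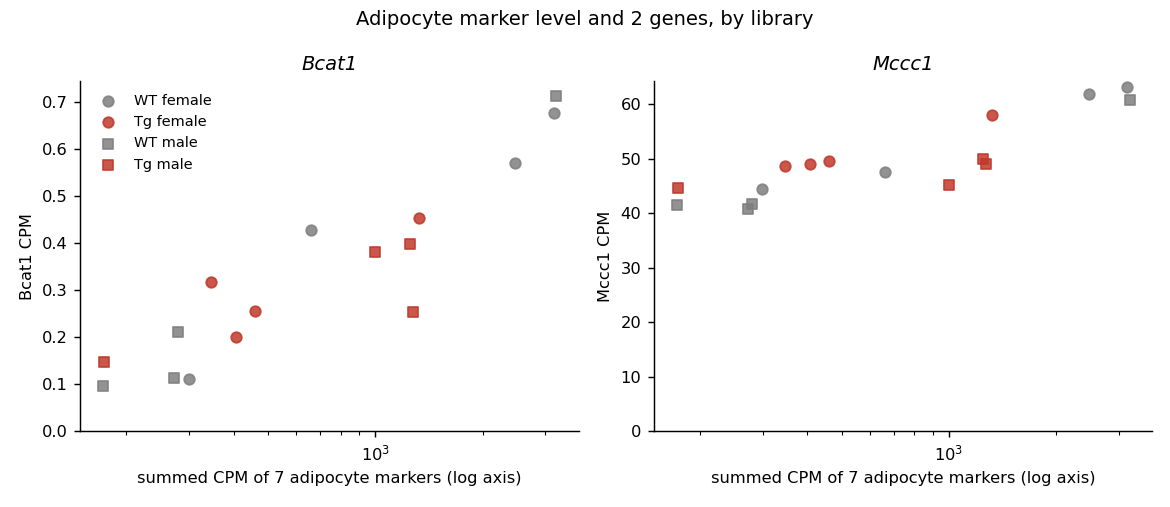
Bcat1 (left) and Mccc1 (right) CPM in each library against the summed CPM of 7 adipocyte markers on a log axis, with WT in grey, Tg in red, females as circles and males as squares. The 3 WT libraries at 2464 to 3216 CPM of markers hold the 3 highest values of both genes.

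Hibadh (chromosome 6, 52546228 to 52640389, minus strand), which oxidises 3-hydroxyisobutyrate in the valine branch, was the steadiest gene, with a coefficient of variation of 8.05% over the 16 libraries. It was at 126 to 156 CPM in WT (median 142) and 130.1 to 165 in Tg (median 145). The log2 fold change was 0.05 (SE 0.05, interval -0.07 to 0.16, adjusted p = 0.544), so a change of more than 1.12-fold in either direction lies outside the interval.

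Within females, 1 of the 10 genes was called (17.7% of all tested genes were, 7.57% as lower) and it was Dbt, lower. Its log2 fold change was -0.32 (SE 0.11), or 1.25-fold lower, with an edgeR adjusted p of 0.0461. This call was close to the threshold: it was kept in 10 and lost in 15 alternative fits, with adjusted p from 0.0226 to 0.107, while the log2 fold change stayed between -0.40 and -0.29. It was lost without any one of the 4 WT females or the 4 Tg females, and without Tg male 3 or Tg male 4. It was also lost with no filter on low counts, with either adipocyte marker covariate and with the slow fibre marker covariate. Leaving out the 3 adipocyte-rich WT libraries lost it too. In the same comparison all 5 macrophage markers had a negative log2 fold change (median -0.95) and 4 of the 5 an unadjusted p under 0.05; edgeR and limma-voom called 0 and DESeq2 called 3. Their summed level was 36.9 to 123 CPM in WT females and 20.2 to 56.3 in Tg females. All 5 fibroblast markers were negative as well (median -0.45), 2 with an unadjusted p under 0.05, at a summed 545 to 1214 CPM in WT and 388 to 846 in Tg females; DESeq2 called 1 and edgeR and limma-voom 0. All 8 adipocyte markers were negative (median -1.33), with 0 called by edgeR, DESeq2 or limma-voom and 0 at an unadjusted p under 0.05. All 8 slow fibre markers were positive (median 4.36), and edgeR called 5, DESeq2 4 and limma-voom 1. No macrophage, fibroblast or adipocyte marker was at 0 in any library, while 3 slow fibre markers were at 0 in some library. The part of these lists in the Dbt level was not tested.

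Bckdhb in females was at 0.19 on the log2 scale (SE 0.09, adjusted p = 0.139). Both genes had no overlap between the 4 Tg and 4 WT females, as did 18% of tested genes. In males, 1 of the 10 was called (18.2% of all tested genes were, 9.85% as higher), namely Bckdhb, higher, at 0.34 (SE 0.09, 1.27-fold) with an adjusted p of 0.0121. Dbt in males was at -0.01 (SE 0.11, adjusted p = 0.972). None of the 10 was free of overlap between Tg and WT males, against 25.7% of tested genes.

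**Figure D4:**
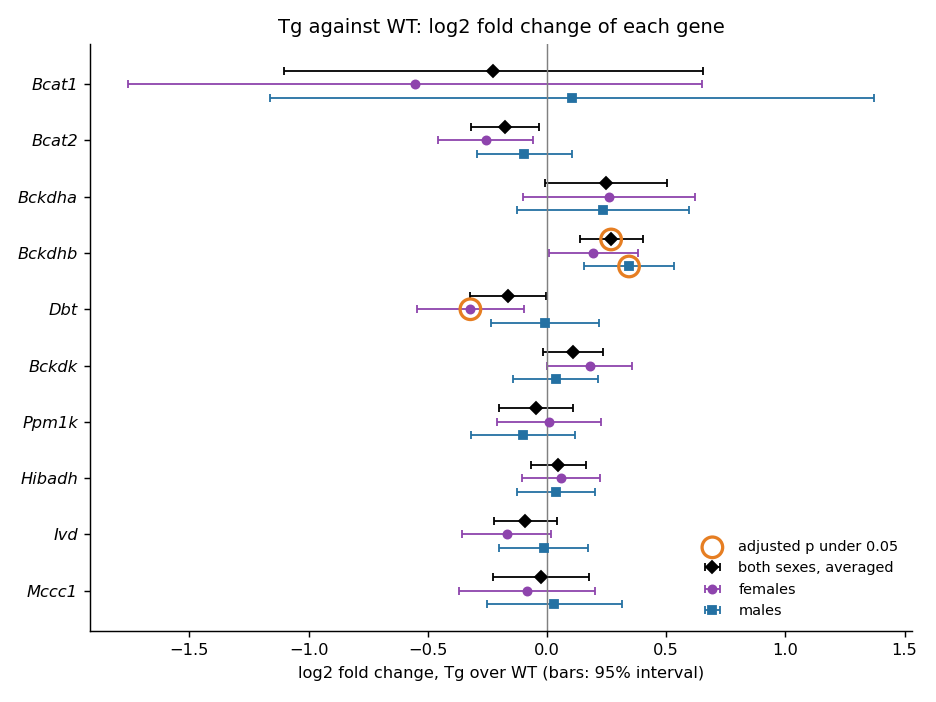
Log2 fold change of Tg over WT for each gene, averaged over the sexes (black diamonds), in females (purple circles) and in males (blue squares), with 95% intervals and orange rings at an adjusted p under 0.05. Rings mark Bckdhb averaged (0.27) and in males (0.34), and Dbt in females (-0.32); the intervals of Bcat1 are the widest.

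The sexes were compared directly by the interaction, the male minus the female log2 fold change. EdgeR called 0 of the 10 genes, 0 of them had an unadjusted p under 0.05, and DESeq2 and limma-voom also called 0. Of the 13666 tested genes 0.00732% were called and 1015 had an unadjusted p under 0.05. Apart from the sparse Bcat1, the interaction was largest for Dbt, at 0.31 (SE 0.15, adjusted p = 0.678). For Bckdhb it was 0.15 (SE 0.12, adjusted p = 0.827). So the data did not show that the response of any of the 10 differed between the sexes, although Dbt was called in females and Bckdhb in males.

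WT males and WT females differed in 2 subunits of the complex. In WT, 2 of the 10 genes were lower in males than in females and none was higher, against 3.67% of tested genes called (1.65% lower in males). Dbt averaged 49.1 ± 2.95 CPM in WT females and 32.9 ± 4.70 in WT males (SD, n = 4 each), a log2 difference of -0.58 (SE 0.11, edgeR adjusted p = 0.00479), or 1.49-fold. Bckdhb differed by -0.46 (SE 0.09, adjusted p = 0.00637), or 1.38-fold. Neither gene overlapped between WT males and WT females, as held for 8.51% of tested genes, and both calls held in every alternative fit. Bckdha, their partner, showed a log2 difference of 0.01 (SE 0.17) between the same groups.

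In Tg, edgeR called 0 of the 10 between the sexes (0.527% of tested genes were called, 72 genes). An unadjusted p under 0.05 was found for 3 of the 10 and for 1286 of the 13666 tested genes. Bckdhb was at -0.31 (SE 0.09, adjusted p = 0.198), Dbt at -0.26 (SE 0.11, adjusted p = 0.435) and Ppm1k at -0.24 (SE 0.10, adjusted p = 0.469). DESeq2 called Bckdhb (adjusted p = 0.0379), and limma-voom called 0 of the 10. Bckdhb and Ppm1k did not overlap between Tg males and Tg females, as held for 7.02% of tested genes. Tg females had a Dbt level of 39.3 ± 1.49 CPM and Tg males 32.7 ± 4.92 (SD, n = 4 each), against 49.1 and 32.9 in WT. Whether the sex difference itself differed between genotypes is the interaction given above, which did not pass.

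Among the other enzymes of the pathway, Acadsb and Pcca fell and Hsd17b10 rose. Of 15 other enzymes, 1 was higher and 4 were lower in Tg, with a median log2 fold change of -0.05. That share is near the 30.4% of all tested genes called (17.2% higher, 13.3% lower). Acadsb, the short and branched chain acyl-CoA dehydrogenase of the isoleucine branch, fell from a median of 152 CPM in WT (113.6 to 189) to 108 in Tg (89.9 to 113.1). Every Tg library lay below every WT library, by a narrow margin at the edge, the log2 fold change was -0.51 (SE 0.05) and the edgeR adjusted p was 1.52e-06. Hsd17b10, a dehydrogenase further along that branch and also a part of mitochondrial RNase P, rose from a median of 38.4 CPM (35.8 to 46.3) to 50.1 (45.0 to 54.5). Its log2 fold change was 0.32 (SE 0.06, adjusted p = 0.000416).

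Pcca, the biotin-bearing chain of propionyl-CoA carboxylase, fell from a median of 62.8 CPM (58.0 to 73.6) to 44.8 (39.2 to 59.9). The log2 fold change was -0.47 (SE 0.07, adjusted p = 5.36e-05), and its partner chain Pccb was at -0.14 (SE 0.07, adjusted p = 0.163). Mcee, the epimerase that follows, was at -0.22 (SE 0.06, adjusted p = 0.00703). Acad8, which opens the valine branch as Ivd opens that of leucine, was at -0.20 (adjusted p = 0.00577). The 3 acyl-CoA dehydrogenases of the branches thus had log2 fold changes of -0.51 (Acadsb), -0.20 (Acad8) and -0.09 (Ivd), of which the first and second were called. None of the 5 calls was lost in the alternatives of this comparison, and the differences between the genes' fold changes were not tested.

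**Figure D5:**
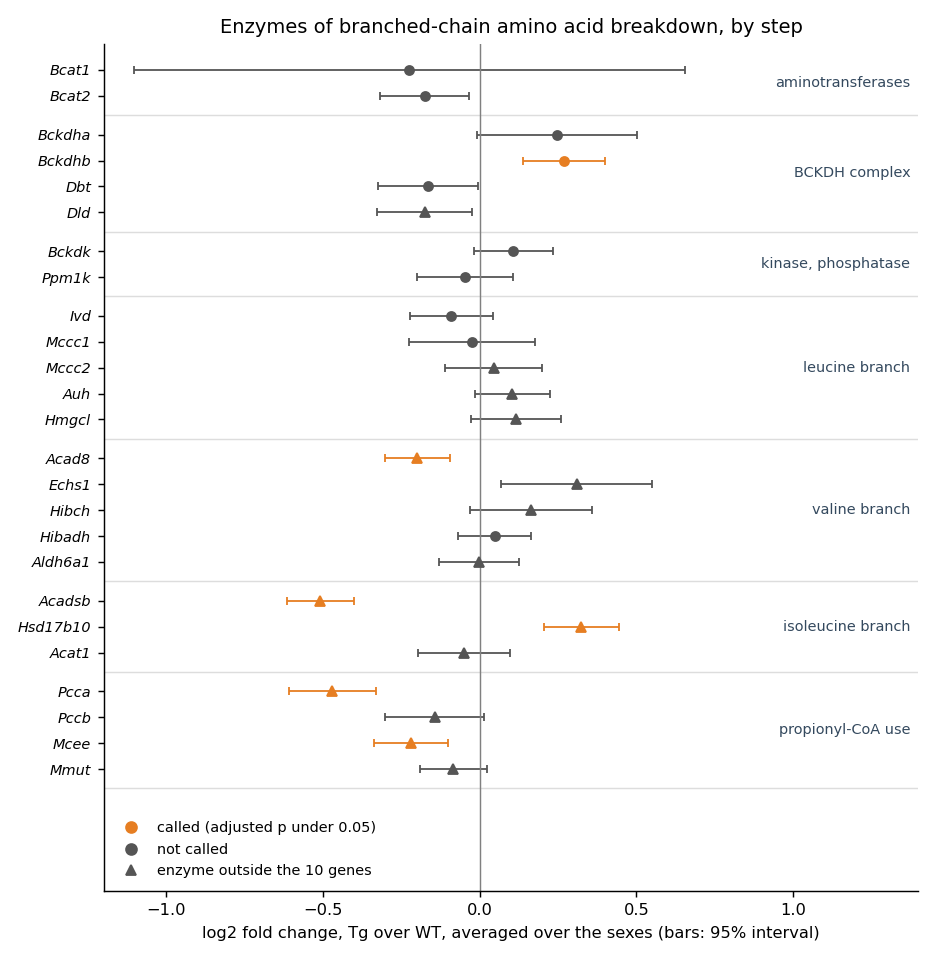
Averaged log2 fold change of Tg over WT with its 95% interval for 25 enzymes of the pathway, ordered from the aminotransferases at the top to the use of propionyl-CoA at the bottom, with the 10 genes as circles, the other enzymes as triangles and called genes in orange. Calls run from -0.51 (Acadsb) to 0.32 (Hsd17b10), and each of the BCKDH complex, valine, isoleucine and propionyl-CoA steps holds at least 1.

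Slc7a5 and Slc3a2, the light and heavy chains of a carrier that brings amino acids into cells, had the largest fold changes in size of the pathway genes listed here. Of 8 carriers and regulators, 3 were higher and 1 lower, against 17.2% and 13.3% of all tested genes, with a median log2 fold change of -0.02. Slc7a5, which carries leucine and other large neutral amino acids, was at 0.800 to 1.77 CPM in WT and 48.4 to 92.3 in Tg, which is 5.69 on the log2 scale (SE 0.15, adjusted p = 2.06e-13). Slc3a2 was at 28.2 to 39.2 CPM in WT and 93.3 to 124 in Tg (log2 fold change 1.62, SE 0.08, adjusted p = 2.6e-10). Slc43a2, another carrier of large neutral amino acids, was higher by 0.61 (adjusted p = 0.00125). Slc7a8, an alternative partner of Slc3a2, was lower, at -0.77 (SE 0.19, adjusted p = 0.00583). Slc25a44, the mitochondrial carrier of branched-chain amino acids, was not called (0.07, SE 0.05, adjusted p = 0.306), nor was Klf15, a transcription factor known to raise genes of this pathway in muscle (-0.21, SE 0.12, adjusted p = 0.197).

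The sister complexes oxidise pyruvate and 2-oxoglutarate and are built like BCKDH. Of their 12 genes, 2 were higher and 2 lower, a share near the 30.4% of all tested genes called, with a median log2 fold change of 0.05. The 4 were kinases or phosphatases of the pyruvate dehydrogenase complex. Pdp1, a phosphatase, was higher by 0.65 (SE 0.12, adjusted p = 0.000512) and the kinase Pdk2 by 0.26 (SE 0.06, adjusted p = 0.0053). The kinases Pdk1 and Pdk4 were lower, at -0.26 (adjusted p = 0.00118) and -0.78 (SE 0.17, adjusted p = 0.00292). Pdk2 was not called with the 3 adipocyte-rich WT libraries left out (0.21, adjusted p = 0.0573).

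Bckdhb, which had the largest averaged fold change of the 10 in size, was also compared with 12222 genes of at least 1 CPM for the course of their levels. Closeness was the mean absolute difference of centred log2 CPM over 16 libraries. The 5 closest were Tceanc (0.0818), Usp46 (0.0865), N6amt1 (0.0868), Acot9 (0.0939) and Ttc38 (0.0947). Acot9, a mitochondrial acyl-CoA thioesterase, averaged 24.05 CPM in females and 18.7 in males of WT, and 28.5 in females and 24.8 in males of Tg. That is the same order of groups as Bckdhb except that its Tg males stood just above its WT females. Usp46, N6amt1 and Ttc38 had the order of Bckdhb throughout, and Tceanc that of Acot9. The 5 were chosen for closeness over these same libraries, so a like order of groups follows from the choice.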

How the data were processed

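Polyadenylated RNA of 16 quadriceps muscles was sequenced as paired-end reads from stranded libraries, per the labels' protocols. The authors deposited 1 table per library with values for 19108 gene symbols, taken here as estimated counts because they are never negative, partly fractional (14.3% of values) and differ in total. Tools listed in the submitters' processing notes are TopHat2, Bowtie2, bcl2fastq and cutadapt 1.2.1, with the mouse build mm10. What counted the reads, with which annotation and whether by strand, is not given in the sources used here. Strand bears on Bckdha, Bcat2, Bcat1 and Mccc1, whose exons overlap genes of the opposite strand.

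Values were rounded to whole numbers (largest change 0.5). Library totals were 17435895 to 30680324, and 3 counts, the limit that a count of 0 allows, were 0.101 to 0.165 CPM (counting error only). In R 4.3.3, edgeR 4.0.16 (filterByExpr, minimum count 10 and total 15, TMM, robust quasi-likelihood) was fitted to 13666 genes with 1 mean per group. Calls needed an adjusted p (Benjamini-Hochberg over all of them) under 0.05, and the fit was tested on simulated data. SE is the log2 fold change over the square root of F. Ratios were compared by an exact permutation test within each sex. Alternatives were DESeq2 1.42.0, limma-voom (limma 3.58.1), RLE factors, other filters, marker covariates, an additive model and leaving out each library. Positions are those of GENCODE M21 and lengths those of its principal transcripts.

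The 10 genes and all lists (other enzymes of the pathway, carriers and regulators, sister dehydrogenases, and markers of adipocytes, slow fibres, fast muscle, endothelium, macrophages, fibroblasts and Schwann cells) were chosen with earlier results of these data known. All 10 genes are named. From the other pathway lists the text names the called genes, plus Dld, Pccb, Slc25a44 and Klf15, which were added after their values were seen. For the gene with the largest averaged fold change the 5 closest in course are named.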

Additional observations from a re-analysis of the deposited data

Results flagged for a closer look

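Of 40 groups of 4 libraries examined (10 genes in 4 groups), 3 held a library whose distance from the nearest other was a larger share of the group's range than Dixon's 95% limit allows, where chance flags about 1 in 20. Dbt was at 40.0 CPM in Tg male 1 and at 30.0 to 30.7 CPM in the other Tg males, a gap of 0.923 of the range, and without this library the averaged log2 fold change of Dbt went from -0.17 to -0.22 (edgeR adjusted p = 0.0195). Mccc1 was at 60.7 CPM in WT male 1 and at 40.8 to 41.7 CPM in the other WT males, a gap of 0.955. The same gene was at 57.9 CPM in Tg female 4 and at 48.6 to 49.5 CPM in the other Tg females, a gap of 0.910. The summed level of 7 adipocyte markers was highest of all 16 libraries in WT male 1 (3216 CPM) and highest of the Tg libraries in Tg female 4 (1321 CPM). Its part in the Mccc1 values was not tested.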

How the results depend on the processing

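No paired analysis was possible because replicate numbers were given in accession order and no label links a Tg animal to a WT animal. The averaged call of Bckdhb held in all 26 alternative fits, and the counts of 1 gene called in males, 0 in the interaction and 2 between the sexes in WT held in all 25 run for those comparisons. In the averaged comparison 2 of the 10 were called with DESeq2, with RLE factors, with the 1 CPM filter and with 7 adipocyte markers as a covariate, Bcat2 being the addition each time, and 1 to 2 when single libraries were left out (2 without WT female 3 or Tg male 2, which adds Bcat2, without WT female 4, which adds Bckdk, and without Tg male 1, which adds Dbt). In females DESeq2 called 2 (Dbt and Bcat2), and 0 were called with no filter, with either adipocyte covariate, with the slow fibre covariate and with the 3 adipocyte-rich libraries left out. Leaving out single libraries gave 0 to 1. Without WT female 3 or WT female 4 the gene called was not Dbt but Bcat2 or Bckdk. DESeq2 called 1 between the sexes in Tg. Of 259 alternative values of the averaged log2 fold changes, 241 kept direction and side of the threshold, 8 passed it and 10 changed sign, all for Bcat1 or Mccc1. Bcat1 was 0.0215 with limma-voom, 0.0270 with the 8-marker and 0.0707 with the 7-marker adipocyte covariate, 0.61 with the 3 libraries left out, and -0.37 to 0.26 over single libraries left out (positive without WT male 1). Mccc1 was 0.0137 with the 7-marker covariate, 0.15 with the 3 libraries left out, and -0.0675 to 0.0469 over single libraries left out (positive without WT female 1, WT female 2 or WT male 1). Dbt in males was 0.0243 with the 3 libraries left out and -0.122 to 0.0437 otherwise (positive without WT male 1 or 2 or Tg male 2, 3 or 4). The ratio of Bckdha to Dbt was 0.54 with the 3 libraries left out and no longer passed (exact test, adjusted p = 0.0571). That of Bckdk to Ppm1k was 0.11 to 0.18 over single libraries left out and passed without WT female 4 (adjusted p = 0.0398), Tg female 4 (0.0490) or Tg male 3 (0.0300), by the exact test. That of Bcat1 to Bcat2 was -0.0813 to 0.379, negative without WT female 4. Among all tested genes, females gave 2416 calls and 1182 with the slow fibre covariate, the interaction 1 and 0 to 87, the sexes in WT 501 and 292 to 807, and the sexes in Tg 72 and 43 to 168. The causes were not tested. The rule set at first for adipocyte-rich libraries, over 3 times the median of 8 markers, took no library and was not run; Car3 led that sum, and both 7-marker alternatives without it were chosen after seeing the data. Bcat1 was not tested under the 1 CPM filter, and its 2 to 17 counts per library limit what can be said of it.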
